A study of Mus musculus with 5 samples.

Results

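The EGF family of growth factors and the ErbB receptors that bind them were followed across the cell compartments of the ovariectomized mouse mammary gland. The genes were taken by their symbols in the deposited gene annotation, which gave 10 of 27998 genes: 6 ligands (Areg, Ereg, Btc, Hbegf, Tgfa and Nrg1) and 4 receptors (Egfr, Erbb2, Erbb3 and Erbb4). The values asked about were which compartment held each ligand, which held each receptor, and how the levels differed between treatments.

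The data were 5 scRNAseq libraries, 1 per group, made from unsorted cells of the fourth mammary gland after its lymph node had been taken out. Female BALB/cj mice were all ovariectomized, and from 20 weeks later they were treated for 1 week. Their label gives an age of 30 weeks, which by the paper's timeline is the age near collection and not that at ovariectomy. OVX received vehicle (DMSO). OVX_E2 received 17β-estradiol (E2) at 1 µg per animal by daily injection, and OVX_E2_P4 received E2 with progesterone (P4) at 0.1 mg per animal. OVX_E2_PBDE and OVX_E2_P4_PBDE received the same hormones and ate chow that held polybrominated diphenyl ethers (PBDE, flame retardants): 7.1 mg of BDE-47, 0.4 mg of BDE-100 and 0.9 mg of BDE-153 per kg of food. The number of mice behind a library was not given in the sources used here, so a difference between libraries cannot be told apart from a difference between animals or preparations. Barcodes with counts numbered 14344, of which 14317 were kept, and the median unique molecular identifiers (UMIs) per barcode lay between 5345 and 8698. In all, 80 of 14263 distinct barcode sequences occurred in more than 1 library.

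Ligands of the EGF family are made as membrane-bound precursors and are released by proteases such as ADAM17 and ADAM10. Amphiregulin (Areg), epiregulin (Ereg), betacellulin (Btc), HB-EGF (Hbegf) and TGFα (Tgfa) bind EGFR, betacellulin, epiregulin and HB-EGF can also bind ErbB4, and neuregulin 1 (Nrg1) binds ErbB3 and ErbB4. ErbB2 has no known ligand and acts as a dimer partner, and ErbB3 has little kinase activity of its own. In the mammary gland, amphiregulin from hormone receptor-positive luminal cells is known as a relay of the estrogen signal to EGFR in the stroma during ductal growth.

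Areg lies on chromosome 5 (GRCm38, chr5:91139599-91148432, plus strand), with Ereg 46.0 kb and Btc 209 kb away on the same chromosome. Tgfa is on chromosome 6, Nrg1 on chromosome 8, Erbb3 on chromosome 10, Egfr and Erbb2 on chromosome 11 and Erbb4 on chromosome 1. Areg is the member with the most UMIs, 85506 in all, and the member whose level differed most between OVX and the E2-treated libraries, so the 250 bases before its annotated start are shown (RefSeq, GRCm38.p6, chr5:91139349-91139598, plus strand), with a match to the cAMP response element in capitals.
Areg upstream: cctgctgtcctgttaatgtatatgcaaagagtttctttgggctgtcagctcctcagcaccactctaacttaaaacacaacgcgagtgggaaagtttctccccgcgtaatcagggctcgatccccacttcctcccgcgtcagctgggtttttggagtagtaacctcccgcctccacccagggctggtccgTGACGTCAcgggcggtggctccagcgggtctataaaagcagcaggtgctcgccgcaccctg
The capitals (TGACGTCA, searched on both strands, positions -61 to -54 from the start) occurred in 1.79% of 32851 mouse promoter windows of 300 bases. Of the 10 genes, 6 had a promoter entry, and the element was found in that of Areg and not in those of Btc, Tgfa, Egfr, Erbb2 and Erbb4. The full palindromic estrogen response element (0.0700% of windows), the shorter AGGTCA (16.3%) and the AP-1 site TGANTCA (7.81%) had no match in these 6 windows. A match is a string of letters and not a measured binding site.

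Cells were assigned to compartments from marker genes, with the 10 genes kept out of the clustering, and each compartment is called by the lineage it resembles. The luminal hormone-sensing-like (L-Hor-like) cells were fewest in OVX, with 92, and OVX_E2 had 476, OVX_E2_PBDE 609, OVX_E2_P4 763 and OVX_E2_P4_PBDE 589. All 7 L-Hor markers were detected in them, at a summed level of 5379 to 6273 UMIs per 1000000 (CPM), against 56.7 to 949.6 in basal-like cells. Luminal alveolar-like (L-Alv-like) cells numbered 142, 204, 579 and 124 in the 4 E2-treated libraries, in the same order, and no cluster of OVX was named so. Basal-like cells numbered 60 to 148 per library, cycling luminal-like cells 40 to 156 in the E2-treated libraries, endothelial-like cells 27 to 72, hematopoietic-like cells 55 to 163 and fibroblast-like cells 888 to 2565. Between 194 and 491 barcodes per library carried markers of both luminal lineages. This mixed luminal group held 36.2% of Areg UMIs, 45.6% of Hbegf UMIs and 51.1% of Erbb3 UMIs, and it is left out of the comparisons below since its cells could not be given to a lineage.

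A level is the sum of a gene's UMIs over the cells of a compartment per 1000000 UMIs of those cells, with an exact Poisson 95% interval that covers counting error only. RNA that leaks from other cells also gives UMIs. A carried-over background was therefore estimated for each compartment's levels from the markers of other compartments, and values near it are not read as expression. No background was estimated for the levels of sub-clusters. Fewer transcripts per cell and more of other RNA cannot be told apart on this scale.

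**Figure D1:**
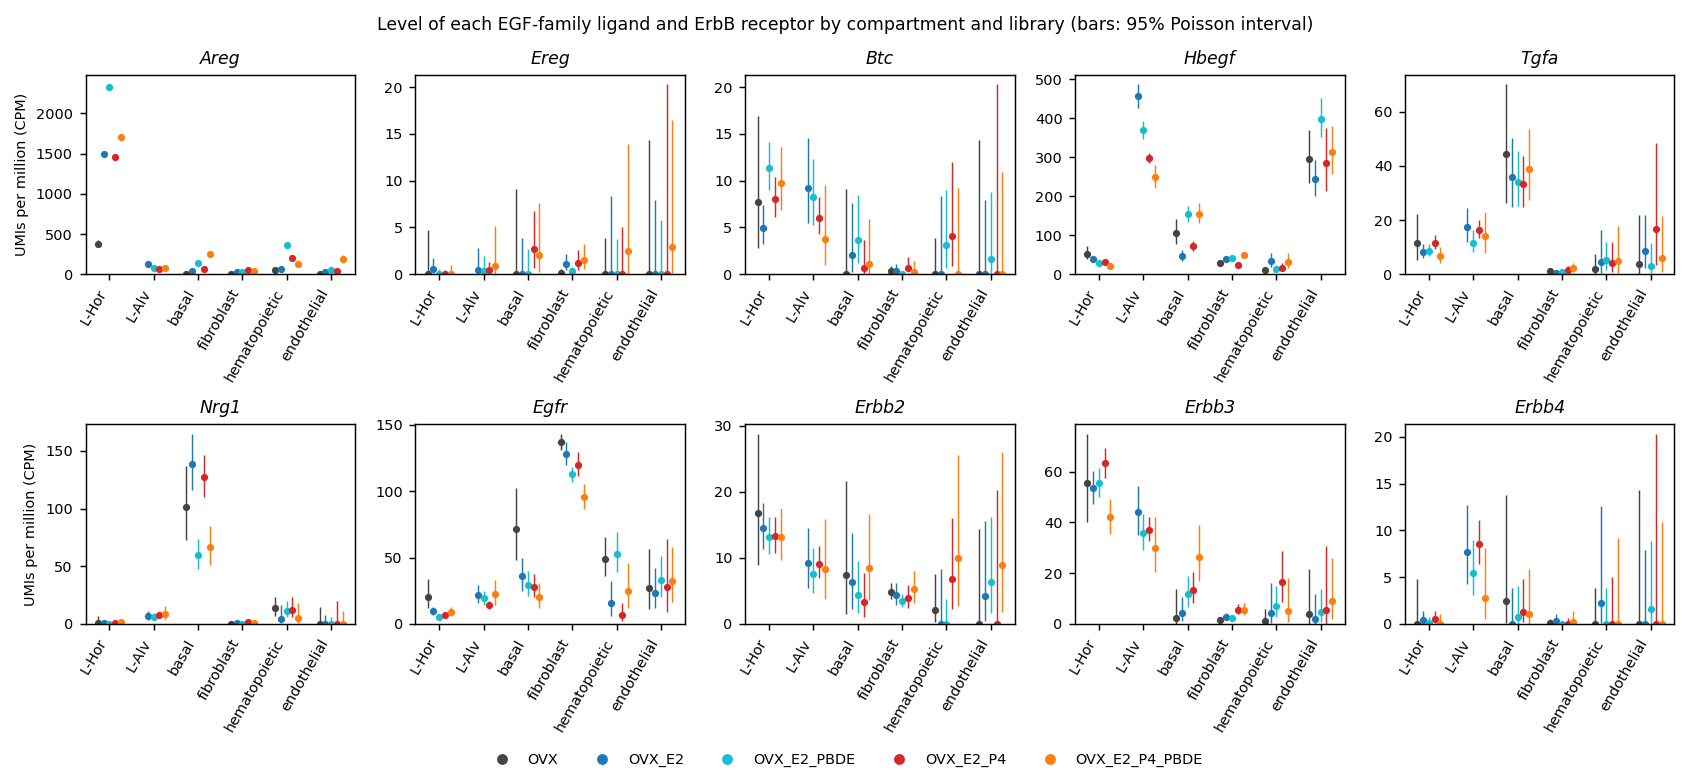
Level (CPM, UMIs per 1000000, linear axes) of the 6 ligands and 4 receptors in 6 compartments, 1 point per library coloured by group, with exact Poisson 95% intervals. Areg was highest in L-Hor-like, Hbegf in L-Alv-like and endothelial-like, Nrg1 and Tgfa in basal-like and Egfr in fibroblast-like cells, and L-Alv-like cells have no OVX point.

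The ligands fell into different epithelial compartments. Areg was an L-Hor-like ligand, Hbegf an L-Alv-like ligand that endothelial-like cells also held, and Nrg1 and Tgfa were basal-like ligands. Btc was about equally high in both luminal lineages, and Ereg was hardly detected. Of the 12303 genes with at least 200 UMIs, 18.4% had their highest mean level in L-Hor-like, 9.94% in L-Alv-like, 11.7% in basal-like, 14.6% in fibroblast-like, 11.6% in hematopoietic-like and 33.7% in endothelial-like cells, which is the background for these places.

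Areg in L-Hor-like cells measured 380 CPM (95% interval 338 to 426) in OVX and 1499 (1466 to 1534) in OVX_E2, with 2330 (2294 to 2365) in OVX_E2_PBDE, 1453 (1425 to 1480) in OVX_E2_P4 and 1705 (1662 to 1748) in OVX_E2_P4_PBDE. OVX was lowest and its interval did not overlap those of the other 4 libraries. The carried-over background for Areg in these cells was at most 3.77 CPM. A UMI of Areg was found in 34.8% of L-Hor-like cells of OVX and in 78.8% to 89.3% of those of the E2-treated libraries. After thinning every cell to 3000 UMIs these shares were 29.5% and 70.0% to 77.3%, where fibroblast-like cells had 0.886% in OVX and 6.11% to 12.7% in the others.

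In L-Alv-like, fibroblast-like and basal-like cells Areg stayed near or below the background estimated for it. L-Alv-like cells had 126, 81.1, 62.3 and 77.3 CPM in the 4 E2-treated libraries, against an estimated background of 106, 117, 97.2 and 148. Fibroblast-like cells had 3.20 CPM in OVX and 30.4 to 55.9 in the E2-treated libraries, below the estimated background in all 5. Basal-like cells had 4.93, 34.8, 146, 71.0 and 253 CPM in OVX, OVX_E2, OVX_E2_PBDE, OVX_E2_P4 and OVX_E2_P4_PBDE, where the background was 4.54, 86.8, 417, 97.6 and 317. L-Alv-like cells of OVX_E2 and basal-like cells of OVX were slightly above the estimate, and the other 12 of these 14 levels were below it. For those 12 the estimate was too high, since a background cannot exceed the level measured. Cycling luminal-like cells were above their estimate, with 1299, 1372, 595 and 836 CPM in the E2-treated libraries against a background of 752, 855, 440 and 686. These cells carried markers of both luminal lineages, as the mixed luminal group did, so their Areg cannot be given to a lineage. In the same order, their L-Hor markers summed to 2401, 1574, 1606 and 2001 CPM and their L-Alv markers to 3714, 5473, 7459 and 3714.

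Outside the luminal cells, the highest mean level of Areg was in hematopoietic-like cells, 162 CPM. They had 52.4, 63.3, 363, 197 and 132 CPM in OVX, OVX_E2, OVX_E2_PBDE, OVX_E2_P4 and OVX_E2_P4_PBDE, against a background of 13.8, 62.7, 197, 130 and 256, and 3 of 12 sub-clusters in them carried markers of fibroblasts or epithelium. The sub-clusters were cut after earlier values had been seen and are described without a test. One of the 3, with 25 barcodes led by Wfdc18, an L-Alv marker, and with Areg itself among its top 10 genes, had 1284 CPM of Areg. Without the 3 sub-clusters the Areg level was 58.1, 67.2, 135, 92.8 and 128 CPM in OVX, OVX_E2, OVX_E2_PBDE, OVX_E2_P4 and OVX_E2_P4_PBDE. Per UMI of L-Hor markers this was 0.507, 0.361, 0.869, 0.340 and 0.351 Areg UMIs, where L-Hor-like cells had 0.0707, 0.239, 0.412, 0.233 and 0.285. Cycling luminal-like cells had 0.541, 0.871, 0.370 and 0.418 in the 4 E2-treated libraries, against 0.361, 0.869, 0.340 and 0.351 in the hematopoietic-like cells. The part of luminal RNA in this Areg was not tested. The sub-cluster of 59 cells led by Lyz1, Retnla and Fcrls had the highest Areg level of those without other cells' markers, 268 CPM (217 to 327), with 1.17 Areg UMIs per marker UMI.

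Hbegf (chromosome 18), the precursor of heparin-binding EGF, had its highest mean level in L-Alv-like cells. It measured 457 CPM (428 to 488) in OVX_E2, 370 (348 to 392) in OVX_E2_PBDE, 298 (285 to 312) in OVX_E2_P4 and 250 (221 to 281) in OVX_E2_P4_PBDE, with a background below 3 CPM. The intervals of these 4 libraries did not overlap. A finer clustering (resolution 1.0) separated 31 L-Alv-like cells in OVX, with 565 CPM (471 to 672), while Areg and Nrg1 had 0 UMIs in them.

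Endothelial-like cells held Hbegf at a similar level: 296 CPM in OVX and 245 in OVX_E2, with 400 in OVX_E2_PBDE, 286 in OVX_E2_P4 and 314 in OVX_E2_P4_PBDE, with a background of at most 8.12. The ranges of L-Alv-like and endothelial-like cells overlapped, so their order is not set by these data. Basal-like cells came after them with 106, 46.4, 154, 71.7 and 156 CPM in the same order, and all intervals lay above the background of 2.92, 17.4, 76.2, 14.7 and 71.5. L-Hor-like cells (20.4 to 53.0 CPM) and fibroblast-like cells (23.9 to 48.6 CPM) had overlapping ranges.

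Nrg1, the ligand of ErbB3 and ErbB4, was highest in basal-like cells. It measured 101 CPM (72.5 to 137) in OVX and 139 (116 to 165) in OVX_E2, with 59.7 (47.5 to 74.1) in OVX_E2_PBDE, 127 (110 to 147) in OVX_E2_P4 and 66.3 (51.0 to 84.9) in OVX_E2_P4_PBDE. The 2 PBDE libraries were the lowest, and their intervals overlapped that of OVX. Nrg1 was low in L-Alv-like cells (5.84 to 8.38 CPM) and lower in L-Hor-like cells (0.140 to 1.40 CPM), and endothelial-like cells had 0 UMIs in all 5 libraries. Hematopoietic-like cells had 4.52 to 13.6 CPM, most of it in a sub-cluster led by Cd209a and Ccl22 (48.8 CPM, 16 UMIs) and one led by Sirpb1a and Clec4a3 (53.9 CPM, 7 UMIs).

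Tgfa, a ligand of EGFR, was also highest in basal-like cells, at 44.4, 35.8, 34.2, 33.2 and 39.0 CPM in OVX, OVX_E2, OVX_E2_PBDE, OVX_E2_P4 and OVX_E2_P4_PBDE. All 5 intervals overlapped one another. L-Alv-like cells had 11.7 to 17.4 CPM and L-Hor-like cells 6.72 to 11.7 CPM, ranges that met at 11.7, and fibroblast-like cells had at most 2.24 CPM.

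Btc, which binds EGFR and ErbB4, had 7.76, 4.98, 11.4, 8.04 and 9.80 CPM in L-Hor-like cells in the same order, from 6 to 81 UMIs per library. L-Alv-like cells had 9.21, 8.24, 6.04 and 3.73 CPM in the 4 E2-treated libraries, so the levels of the luminal lineages overlapped. Ereg had 46 UMIs in all barcodes together. Fibroblast-like cells held 27 of them, at 0.146 to 1.49 CPM, and 18 of these lay in the sub-cluster led by Mfap4, Igfbp2 and Crabp1 (2.44 CPM, 1.45 to 3.86).

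The receptors also fell into different compartments. Egfr was a fibroblast-like gene, Erbb2 and Erbb3 were highest in both luminal lineages, and Erbb4 was found in L-Alv-like cells. Egfr in fibroblast-like cells measured 137 CPM (131 to 143) in OVX and 128 (120 to 137) in OVX_E2, with 113 (107 to 119) in OVX_E2_PBDE, 120 (111 to 129) in OVX_E2_P4 and 95.6 (86.3 to 106) in OVX_E2_P4_PBDE. They held 79.4% of all Egfr UMIs, and a UMI was found in 33.0% to 53.7% of them. Basal-like cells came next in mean level with 71.5, 35.8, 29.1, 27.9 and 20.0 CPM in the same order of libraries, above a background of at most 13.9. L-Alv-like cells had 14.4 to 22.4 CPM and endothelial-like cells 23.6 to 33.3 CPM. Both ranges overlapped the 20.0 to 35.8 CPM of basal-like cells in the E2-treated libraries. L-Hor-like cells were low, at 20.7, 9.57, 5.33, 6.70 and 8.96 CPM, where the background was 13.4, 5.25, 5.44, 3.55 and 4.42. Hematopoietic-like cells had 6.85 to 52.6 CPM, and 14.9, 5.17, 6.28, 6.87 and 9.85 CPM without the 3 sub-clusters that carried markers of other cells, from 2 to 9 UMIs per library. L-Hor-like and these hematopoietic-like cells overlapped in Egfr.

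Erbb2, the receptor without a known ligand, had 16.8, 14.6, 13.2, 13.3 and 13.2 CPM in L-Hor-like cells in the order OVX, OVX_E2, OVX_E2_PBDE, OVX_E2_P4 and OVX_E2_P4_PBDE, and the 5 intervals overlapped. L-Alv-like cells had 7.56 to 9.21 CPM, basal-like cells 3.32 to 8.42 CPM and fibroblast-like cells 3.45 to 5.23 CPM, so the ranges of the neighbours after L-Hor-like cells overlapped. Erbb3, a neuregulin receptor, had 55.6, 53.4, 55.5, 63.2 and 41.99 CPM in L-Hor-like cells, and OVX_E2_P4_PBDE was lowest. L-Alv-like cells had 44.0, 35.7, 37.2 and 29.8 CPM in the 4 E2-treated libraries, lower than L-Hor-like cells in each of them. In basal-like cells Erbb3 was 2.47 to 26.3 CPM against a background of 0.664 to 9.94, and in fibroblast-like cells it was 1.60 to 5.70 CPM.

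Erbb4, the other neuregulin receptor with kinase activity, had 269 UMIs in all. In L-Alv-like cells it had 15 UMIs (7.68 CPM, 4.30 to 12.7) in OVX_E2, 16 (5.50 CPM, 3.14 to 8.93) in OVX_E2_PBDE, 55 (8.52 CPM, 6.42 to 11.1) in OVX_E2_P4 and 3 (2.79 CPM, 0.576 to 8.17) in OVX_E2_P4_PBDE. L-Hor-like cells had at most 4 UMIs and 0.536 CPM in any library. The share of L-Alv-like cells with an Erbb4 UMI was 2.42% to 10.6%, against at most 0.524% of L-Hor-like cells, with median depths of 7190 to 11734 and 5527 to 10460 UMIs per cell. After thinning to 3000 UMIs the shares were 0.921% to 2.70% and at most 0.139%.

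The differences between compartments were tested with edgeR's quasi-likelihood test on 33 sums of UMIs, 1 for each library and compartment, with library as an additive term and Benjamini-Hochberg adjustment over all 11029 genes tested. The libraries served as replicates although their treatments differ, so the spread includes differences in treatment response. Of the 10 genes, 8 passed the filter on low counts, and Ereg and Erbb4 did not.

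**Figure D2:**
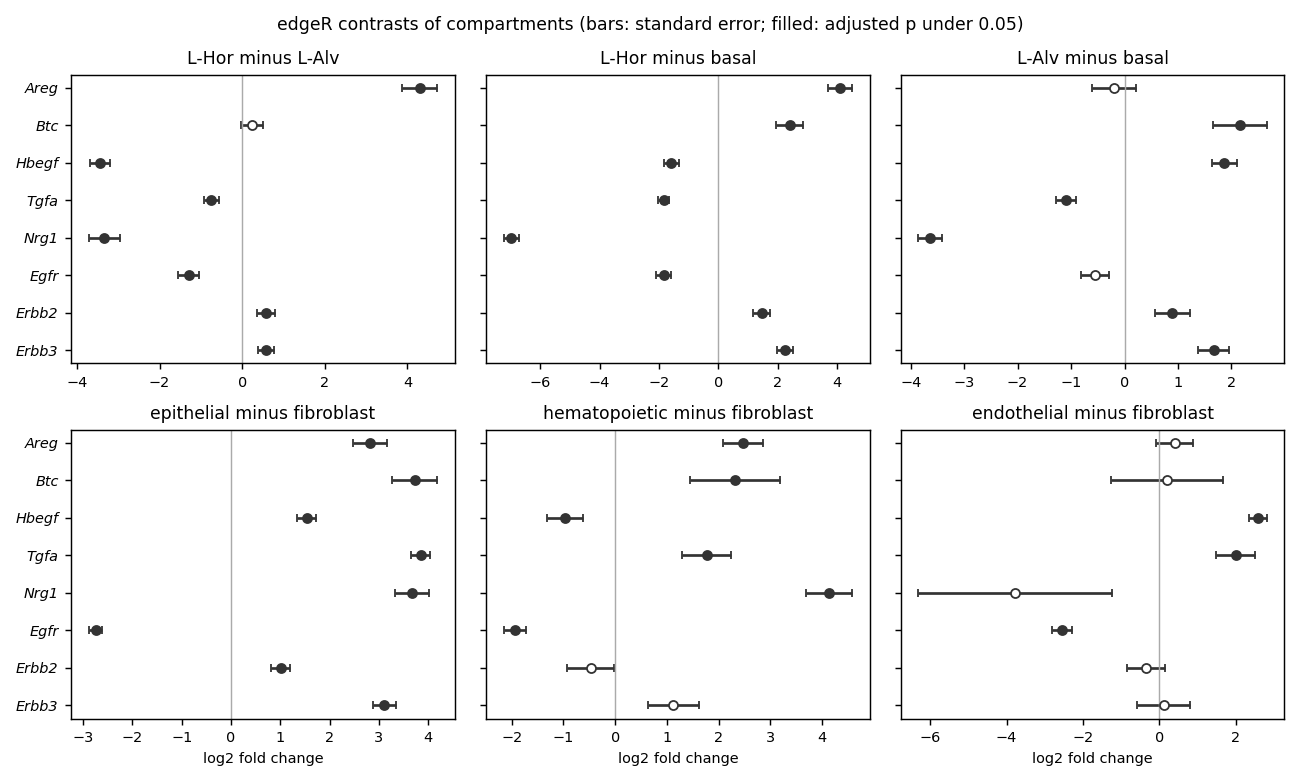
Log2 fold change (points) and standard error (bars) of the 8 genes tested in each of 6 contrasts between compartments, with filled points where the edgeR adjusted p was under 0.05. Nrg1 had the largest difference, -6.98 between L-Hor-like and basal-like cells, with an L-Hor-like level near its background. Egfr lay below 0 in all 6 panels, with an open point in L-Alv minus basal.

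Between the luminal lineages, 3 of the 8 genes were higher in L-Hor-like cells (27.4% of all genes tested) and 4 were higher in L-Alv-like cells (26.1%). Areg was higher in L-Hor-like cells by 4.30 ± 0.43 on the log2 scale (SE, edgeR adjusted p = 1.09e-10), Erbb2 by 0.57 ± 0.21 (edgeR adjusted p = 0.0203) and Erbb3 by 0.57 ± 0.20 (edgeR adjusted p = 0.0144). Erbb2 did not pass without OVX_E2 (adjusted p = 0.0797) or without OVX_E2_PBDE (adjusted p = 0.0968), and Erbb3 did not pass without OVX_E2_P4 (0.0897), without OVX_E2_PBDE (0.0733) or in DESeq2 (0.190). In the opposite direction, L-Hor minus L-Alv was -3.45 ± 0.24 for Hbegf (edgeR adjusted p = 1.74e-14), -3.34 ± 0.38 for Nrg1 (7.4e-09), -1.30 ± 0.25 for Egfr (4.9e-05) and -0.75 ± 0.18 for Tgfa (0.000848). Btc had 0.24 ± 0.27 (0.488). With no filter on low counts, the difference of Erbb4 was -4.37 (edgeR adjusted p = 1.54e-17).

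Against basal-like cells, L-Hor-like cells had 4 genes higher (28.5% of all genes tested) and 4 lower (27.7%). Areg (4.10 ± 0.40), Btc (2.40 ± 0.46), Erbb3 (2.24 ± 0.26) and Erbb2 (1.46 ± 0.28) were higher, with edgeR adjusted p-values from 8.53e-11 to 3.99e-05. Nrg1 was lower by the largest amount, -6.98 ± 0.26 (edgeR adjusted p = 3.4e-20), beside Egfr (-1.84 ± 0.26), Tgfa (-1.84 ± 0.18) and Hbegf (-1.58 ± 0.25). Nrg1 had 16 UMIs in all L-Hor-like cells. Its level there was 0.598, 0.140 and 0.804 CPM in OVX_E2, OVX_E2_PBDE and OVX_E2_P4, against backgrounds of 0.786, 0.335 and 0.786. The size of its difference, here and against L-Alv-like cells, is therefore not read as a ratio of expression. Areg was near or below its background in basal-like and L-Alv-like cells, so the sizes of its differences from them are not read so either. L-Alv-like cells had 4 genes higher than basal-like cells (19.4%) and 2 lower (19.3%). Btc (2.16 ± 0.50), Hbegf (1.87 ± 0.24) and Erbb3 (1.67 ± 0.29) were higher, and Erbb2 (0.89 ± 0.33, edgeR adjusted p = 0.0292) did not pass without OVX_E2 (0.0708), OVX_E2_P4 (0.270) or OVX_E2_PBDE (0.0730). Nrg1 (-3.64 ± 0.22) and Tgfa (-1.09 ± 0.19) were lower. Egfr, at -0.55 ± 0.26 (edgeR adjusted p = 0.0965), passed when the highest Scrublet scores were left out (-0.79, edgeR adjusted p = 0.00764), and Areg had -0.20 ± 0.41 (0.752).

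The mean of the 3 epithelial lineages was above fibroblast-like cells for 7 of the 8 genes (35.8% of all genes tested) and below for Egfr, the exception (34.8%). Tgfa (3.85 ± 0.19), Btc (3.72 ± 0.46), Nrg1 (3.67 ± 0.35), Erbb3 (3.11 ± 0.23), Areg (2.81 ± 0.34), Hbegf (1.54 ± 0.19) and Erbb2 (1.00 ± 0.19) were higher. Egfr was lower in the epithelial lineages by -2.75 ± 0.14 (edgeR adjusted p = 3.1e-19). Endothelial-like cells had 2 genes higher than fibroblast-like cells (21.3%) and 1 lower (26.6%). Hbegf was higher by 2.58 ± 0.24 (edgeR adjusted p = 1.28e-11), Tgfa by 1.99 ± 0.52 (0.00159), and Egfr was lower (-2.54 ± 0.26). The Tgfa call rests on 12 UMIs and did not pass when high Scrublet scores were left out (0.125). Hematopoietic-like cells had 4 genes higher (25.2%) and 2 lower (29.7%). Nrg1 (4.14 ± 0.44) and Areg (2.48 ± 0.39) were higher and Egfr (-1.94 ± 0.22) was lower, whereas the calls of Btc, Tgfa and Hbegf were lost under at least 2 of the alternatives each. Areg was below its background in fibroblast-like cells of every library and in hematopoietic-like cells of OVX_E2_P4_PBDE. The sizes of its differences from fibroblast-like cells are therefore not read as ratios of expression.

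Treatments had 1 library each, so ratios between them were not tested. Ratios of CPM with 1 UMI added to each sum are given with an exact binomial 95% interval for counting error, where a gene in a compartment reached 50 UMIs summed over the 2 libraries, and a ratio beyond 2-fold in either direction was counted. In several compartments the ratio of the median gene differed from 1 by more than 0.1 on the log2 scale. It was -0.29 in L-Hor-like cells for OVX_E2 over OVX, and from -0.16 to -0.19 in L-Hor-like, L-Alv-like, basal-like and fibroblast-like cells for OVX_E2_PBDE over OVX_E2.

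For OVX_E2 over OVX, 6 of 17 pairs were beyond 2-fold, against 7.36% of all pairs of gene and compartment. Areg in L-Hor-like cells was 3.93-fold higher in OVX_E2 (3.51 to 4.44), or 4.79-fold relative to the median gene, and the ratio lay between 3.92 and 4.79 under 7 alternatives. In OVX 60 of 92 L-Hor-like cells had 0 Areg UMIs, and in OVX_E2 67 of 476. The median cell had 0 CPM in OVX and 818 in OVX_E2, and the 10% of cells with the most Areg UMIs held 65.0% and 41.3% of the Areg UMIs. The ratio of 9.32 in fibroblast-like cells was of levels below the carried-over background. Pgr and Greb1 had been listed as a check of the estradiol response. Pgr had a ratio of 1.18 (0.956 to 1.49) in L-Hor-like cells and 3.10 (2.03 to 4.87) in fibroblast-like cells. Pgr is also among the markers that named the L-Hor-like cells. In fibroblast-like cells of OVX and OVX_E2 it had 2.69 and 8.43 CPM, and the L-Hor markers together summed to 92.5 and 177 CPM. The part of luminal RNA in the fibroblast-like ratio was not tested. Greb1 had 13 UMIs in L-Hor-like cells of OVX_E2 and 0 in those of OVX, too few to count.

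Egfr had a lower level in OVX_E2 than in OVX in basal-like cells (ratio 0.499, 0.296 to 0.853) and in L-Hor-like cells (0.444, 0.258 to 0.872). Relative to the median gene these ratios were 0.532 and 0.541, and with the background subtracted 0.525 and 0.528, no longer beyond 2-fold. The L-Hor-like level of OVX came from 16 UMIs (20.7 CPM, 11.8 to 33.6), an interval that held its background. The L-Hor-like ratio is therefore not read as a difference in expression. In fibroblast-like cells the ratio was 0.934 (0.860 to 1.01). Hbegf in basal-like cells had a ratio of 0.437 (0.281 to 0.682), and between 0.284 and 0.467 over 7 alternatives. In the basal-like cells of OVX all 9 dissociation stress genes were also at their highest of the 5 libraries, among them Fos with 3757 against 1276 to 1754. All 7 basal markers were lower in the basal-like cells of OVX_E2 than in those of OVX too, with a median ratio of 0.710 (0.449 to 0.947 over the markers). The part of either in the Egfr and Hbegf ratios was not tested.

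For OVX_E2_P4 over OVX_E2, 5 of 35 pairs were beyond 2-fold, against 2.35% of all pairs, and 4 of them were Areg outside L-Hor-like cells. Both Areg levels were near or below the background for L-Alv-like and basal-like cells, and hematopoietic-like cells held barcodes with epithelial markers. In cycling luminal-like cells the Areg ratio was 0.458 (0.430 to 0.487), where the background fell from 752 to 440 CPM. In L-Hor-like cells the ratio was 0.969 (0.941 to 0.998), or 1.03 relative to the median gene, so its direction depended on the scaling. For OVX_E2_P4_PBDE over OVX_E2_PBDE, 3 of 28 pairs were beyond 2-fold (2.14% of all pairs). They were Erbb3 in fibroblast-like cells, Areg in endothelial-like cells and Areg in hematopoietic-like cells. Areg was 190 against 52.3 CPM in endothelial-like cells and 132 against 363 CPM in hematopoietic-like cells, and the part of luminal RNA in these was not tested. Areg in L-Hor-like cells had a ratio of 0.732 (0.710 to 0.754).

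Hbegf in L-Alv-like cells was lower with P4 in both comparisons, with ratios of 0.651 (0.601 to 0.706) without PBDE and 0.677 (0.589 to 0.773) with PBDE. Neither was beyond 2-fold, and over 7 alternatives they ranged from 0.650 to 0.705 and from 0.671 to 0.682. The 9 dissociation stress genes in the same cells had median ratios of 1.02 and 0.832, with 1 and 0 of them beyond 2-fold, and their part in the Hbegf ratios was not tested. Erbb3 in fibroblast-like cells had ratios of 2.06 (1.15 to 3.98) and 2.54 (1.38 to 4.48) with P4, from 2.71 to 5.70 and from 2.18 to 5.48 CPM, where the background rose from 1.26 to 3.13 and from 1.36 to 2.23.

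**Figure D3:**
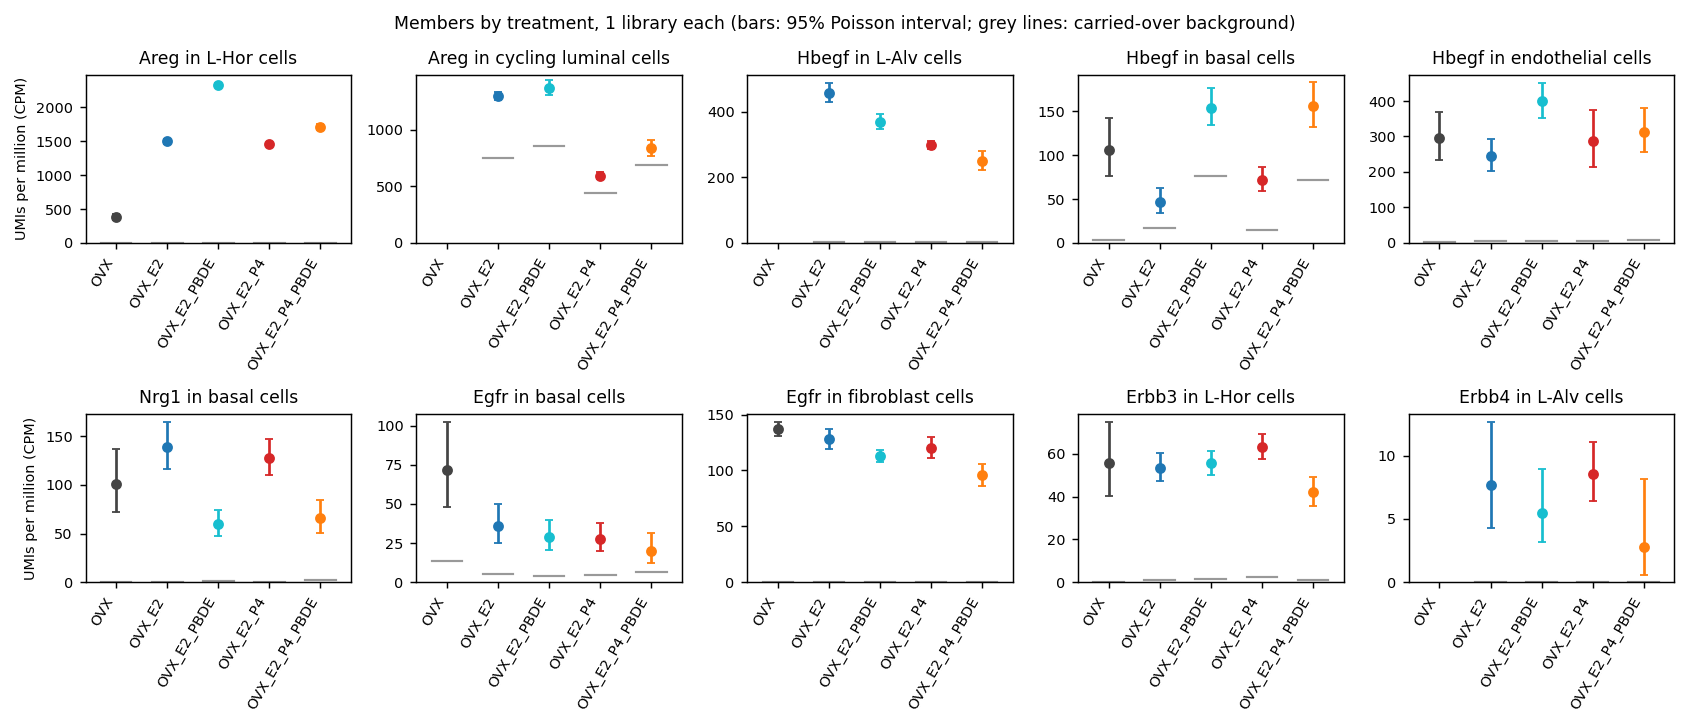
Level (CPM, linear axes, 1 library per point with exact Poisson 95% intervals) of 10 pairs of gene and compartment by treatment, with the carried-over background as grey lines. Areg in L-Hor-like cells was lowest in OVX, Hbegf in L-Alv-like cells lay between 250 and 457, and Nrg1 in basal-like cells was lowest in both PBDE libraries.

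For OVX_E2_PBDE over OVX_E2, 6 of 31 pairs were beyond 2-fold (2.62% of all pairs), and for OVX_E2_P4_PBDE over OVX_E2_P4, 6 of 30 (3.73%). Among them was Areg in basal-like cells in both comparisons. Areg in hematopoietic-like cells (63.3 to 363 CPM) was among the former, and in endothelial-like cells (38.6 to 190 CPM) among the latter. The part of luminal RNA in these Areg levels was not tested. Areg in L-Hor-like cells had ratios of 1.55 (1.51 to 1.60) and 1.17 (1.14 to 1.21), or 1.73 and 1.26 relative to the median gene, within 2-fold. At resolution 1.0, L-Hor-like clusters had 1582 and 1322 CPM of Areg in OVX_E2 and 2393 and 2242 in OVX_E2_PBDE. They had 1215 and 1698 in OVX_E2_P4 and 1269, 2306 and 579 in OVX_E2_P4_PBDE. The part of the mix of clusters in the Areg ratios between these libraries was not tested. Btc in L-Hor-like cells had a ratio of 2.22 (1.44 to 3.73), or 2.48 relative to the median gene, from 25 UMIs in OVX_E2 and 81 in OVX_E2_PBDE. With P4 the ratio for Btc was 1.23 (0.780 to 1.88).

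In basal-like cells, Nrg1 and Hbegf differed between each PBDE library and the library given the same hormones. The Areg ratios there were of levels that are not read as expression. These comparisons do not include OVX, whose Nrg1 interval (72.5 to 137) overlapped those of both PBDE libraries. Nrg1 had ratios of 0.431 (0.322 to 0.569) without P4 and 0.526 (0.385 to 0.695) with P4, or 0.490 and 0.564 relative to the median gene, and these became 0.551 and 0.858 without the highest Scrublet scores. These ratios are of summed UMIs, so deeper cells weigh more. A UMI of Nrg1 was found in 42.3% of basal-like cells of OVX_E2 and 40.0% of OVX_E2_PBDE. With P4 these shares were 38.5% in OVX_E2_P4 and 31.25% in OVX_E2_P4_PBDE. After thinning to equal depth the shares were 19.7% and 16.8% without P4, and 19.9% and 14.2% with P4. In the same order, the mean of the levels of single cells was 102 and 73.6 CPM, and 96.8 and 74.2 CPM. Hbegf had ratios of 3.27 (2.40 to 4.72) and 2.17 (1.68 to 2.81), or 3.72 and 2.33 relative to the median gene, and the ratio with P4 was 1.48 after the background was subtracted. Areg had ratios of 4.10 and 3.54, or 4.67 and 3.80 relative to the median gene, at levels below its background.

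All 7 basal markers were lower in the basal-like cells of the PBDE libraries as well, with median ratios of 0.715 (0.630 to 0.883 over the markers) without P4 and 0.586 (0.506 to 0.698) with P4. The 7 L-Alv markers summed to 2300 and 2290 CPM in the basal-like cells of OVX_E2_PBDE and OVX_E2_P4_PBDE against 398 and 585 in OVX_E2 and OVX_E2_P4, and none of the 7 was at 0 UMIs. The 7 L-Hor markers summed to 731 and 949.6 CPM against 300.3 and 323. The part of luminal RNA in the Nrg1 and Hbegf ratios was not tested, and Tgfa in the same cells had ratios of 0.947 (0.601 to 1.53) and 1.18 (0.746 to 1.83), or 1.08 and 1.27 relative to the median gene. PBDE feeding and the preparation of these libraries cannot be told apart.

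Within the fibroblast-like cells, the sub-cluster with the lowest Egfr had the highest Hbegf. The 5 sub-clusters were cut from all libraries together without the 10 genes and are described with no test. Egfr was highest in the sub-cluster led by Cxcl14, Vtn and Steap4 (194 CPM, 185 to 204, 1587 cells) and in that led by Mfap4, Igfbp2 and Crabp1 (178 CPM, 169 to 188, 1164 cells). In every library these were between 143 and 208 CPM and between 149.9 and 188 CPM. Egfr was lowest, 48.7 CPM (42.9 to 55.1), in the 847 cells led by Krtdap, Dmkn and Sbsn, with 42.8 to 56.0 over the libraries. Those cells had the highest Hbegf, 93.0 CPM (84.9 to 102), and the sub-clusters with the highest Egfr had 9.53 and 14.0 CPM of Hbegf. Over the libraries, Hbegf was 52.5 to 105 CPM in the sub-cluster led by Krtdap and did not overlap the 6.51 to 14.96 and 9.75 to 20.2 CPM of the other two, whose ranges overlapped each other.

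Endothelial-like cells also fell apart for Hbegf. A sub-cluster of 119 cells led by hemoglobin genes, Csf3, Adamts9 and Hmox1 had 556 CPM (509 to 606), and one of 115 cells led by Car4 had 95.9 CPM (77.3 to 118). In the libraries with at least 20 cells, the former had 577 and 503 CPM (OVX_E2_PBDE and OVX_E2_P4_PBDE) and the latter 68.1 to 160 CPM in 4 libraries. Nr4a3, an immediate early gene named after its values were seen, had 256 and 28.2 CPM in these sub-clusters. Of the dissociation stress genes, Atf3 had 572 and 265 CPM, Egr1 1343 and 958, and Fos 3318 and 3899. Their part in the Hbegf difference was not tested.

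**Figure D4:**
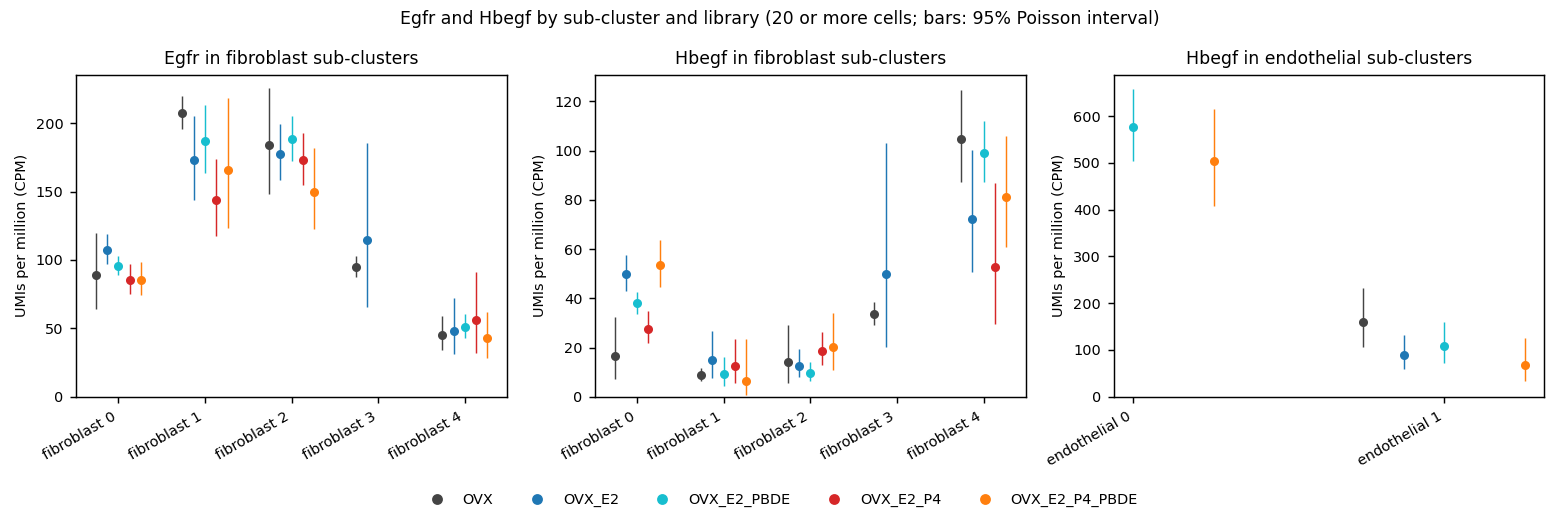
Egfr and Hbegf (CPM, linear axes) by sub-cluster of fibroblast-like and endothelial-like cells and library, for libraries with at least 20 cells in a sub-cluster, with exact Poisson 95% intervals. Fibroblast sub-clusters 1 and 2 had the highest Egfr (143 to 208) and at most 20.2 of Hbegf, and sub-cluster 4 had the lowest Egfr and the highest Hbegf.

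The other genes of the pathway were counted in lists. Among the other ligands, Epgn (epigen, which binds EGFR) was higher in L-Hor-like than in L-Alv-like cells by 4.13 ± 0.39 (edgeR adjusted p = 4.05e-11) and than in basal-like cells by 3.14 ± 0.40 (3.25e-08). Its level in L-Hor-like cells was 80.2 CPM in OVX and 24.9 in OVX_E2, with 13.5 in OVX_E2_PBDE, 55.6 in OVX_E2_P4 and 14.0 in OVX_E2_P4_PBDE, so that OVX was highest where Areg was lowest. Nrg4 had 3.88 to 10.2 CPM in L-Hor-like cells, Nrg2 reached 14.7 CPM in basal-like cells, Egf was at most 0.858 CPM in any pooled compartment and Nrg3 had 0 UMIs. Of the 5 genes for shedding, Adam10, a protease that releases several of these ligands, was higher in L-Hor-like than in L-Alv-like cells by 2.18 ± 0.14 (edgeR adjusted p = 3.05e-15), at 113 to 162 CPM. Rhbdf1 and Timp3, an inhibitor of these proteases, were lower in L-Hor-like cells, and the remaining 2 of the 5 did not pass.

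Feedback inhibitors of the receptors and of ERK signalling were mostly lower in L-Hor-like cells: 7 of 11 were lower and 2 higher than in L-Alv-like cells, and 9 of 11 were lower and 1 higher than in basal-like cells. The median log2 difference of the list was -1.68 and -1.55, where that of all genes tested was 0.017 and 0.021. Of the 9 dissociation stress genes, 3 were higher and 0 lower in L-Hor-like than L-Alv-like cells (median 0.11), and 2 were higher and 5 lower than in basal-like cells (median -0.44). Their part in these differences was not tested. Errfi1, an inhibitor that binds EGFR, was lower in L-Hor-like than in L-Alv-like cells by -1.85 ± 0.14 (edgeR adjusted p = 1.75e-13), with 181 to 545 CPM in L-Hor-like and 816 to 911 in L-Alv-like cells. Dusp5, a phosphatase for ERK, differed by -3.04 ± 0.23 (1.32e-13). Of the 7 ERK-responsive genes, 5 were lower and 1 higher in L-Hor-like than in L-Alv-like cells and all 7 were lower than in basal-like cells. Phlda1 had 121 to 308 CPM in L-Hor-like and 1216 to 1623 CPM in L-Alv-like cells (-2.97 ± 0.16, edgeR adjusted p = 3.98e-17). Egr1, which had the highest mean CPM of this list in L-Hor-like and in basal-like cells, had 455 and 710. Egr1 is also 1 of the 9 dissociation stress genes, so the lists share a gene. The 5 adaptor genes had 1 and 2 lower calls in these contrasts and none higher, with Gab1 at -1.35 ± 0.16 against L-Alv-like cells. The lists were chosen with results of these data known, and their counts are to be read beside the 26.1% and 27.7% of all genes that were lower in the same contrasts.

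**Figure D5:**
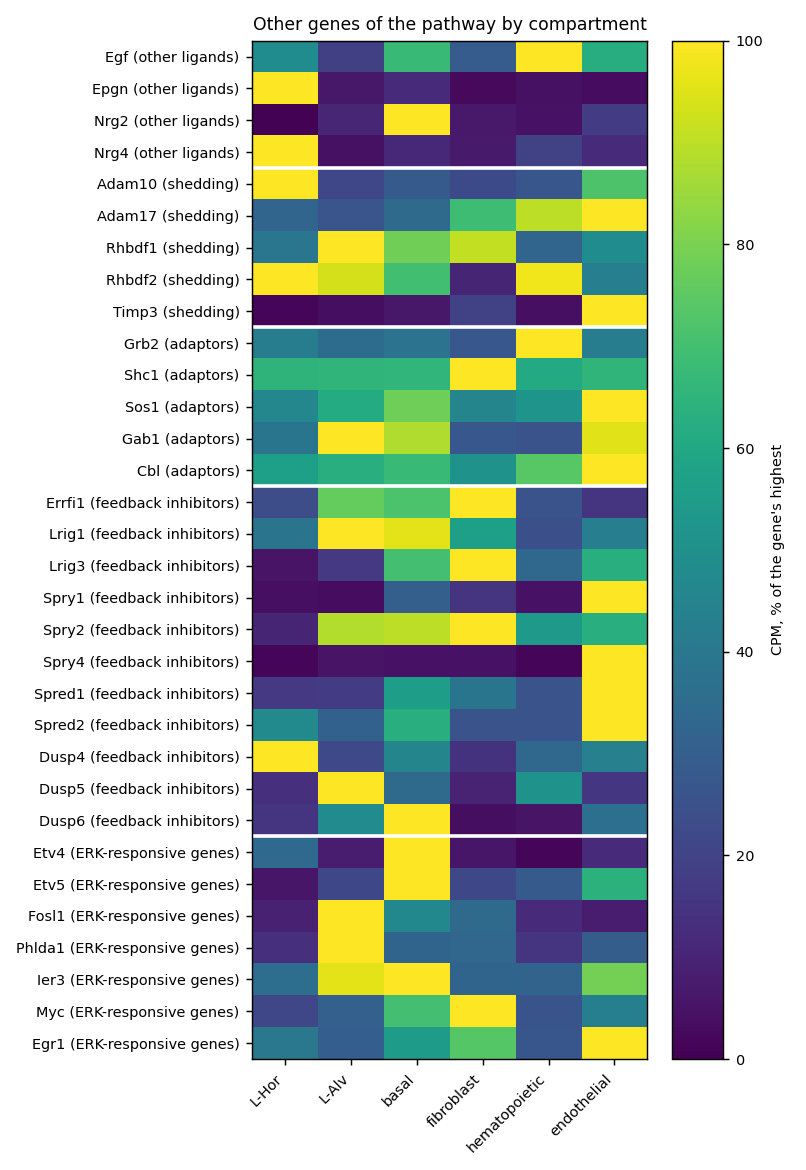
Pooled CPM of 32 other pathway genes in 6 compartments as a percent of the gene's highest compartment (colour, linear scale from 0 to 100), with white lines between the lists. Epgn, Nrg4 and Adam10 were highest in L-Hor-like cells, and Dusp5 and Phlda1 in L-Alv-like cells.

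The genes whose levels followed each of the 9 members with at least 200 UMIs most closely were found by Pearson's correlation of log2(CPM + 1) over the 33 sums among 12303 genes. The sums share libraries and compartments, so the values are descriptive. Areg was most like Cxcl15 (r = 0.950), Dkkl1 (0.944) and Ly6d (0.934), Hbegf like Piezo1 (0.894), Cngb1 (0.890) and Srrm2 (0.887), and Nrg1 like Oxtr (0.890), Cnn1 (0.881) and Lamb3 (0.877). Tgfa was most like Actn1 (0.916), Btc like Tjp3 (0.922), with Erbb3 among its 3 (0.888), and Egfr like Uap1 (0.943). Erbb3 was most like Krt18 (0.943) and Cldn4 (0.943), Erbb2 like Ccpg1os (0.836) and Erbb4 like Col9a1 (0.863). Ly6d, Oxtr and Krt18 are markers used to name the compartments.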

How the data were processed

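Raw UMI counts of 5 single-cell libraries (10x Chromium 3' chemistry) were used as deposited. The authors made these counts with Cell Ranger 2.0.0 on the mm10 build and kept the barcodes that it called as cells. Barcodes with at least 500 genes, at least 1000 UMIs and at most 10% mitochondrial UMIs were kept, and the library totals of UMIs lay between 19982067 and 42012988. Each library was clustered in Seurat 5.3.0 (10 components, 20 neighbours, 2000 variable genes without the members and pathway genes, resolution 0.3 for OVX and 0.5 for the others). Clusters were named from markers, so names are rebuilt and may differ from those of the study. Clusters of barcodes with markers of both luminal lineages were set aside, and as an alternative the 20% of barcodes with the highest Scrublet scores (scanpy 1.11.5) were left out too. The carried-over background of a level was the median ratio of another compartment's markers, times the gene's level there, at its highest over the other compartments.

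UMIs were summed per library and compartment of at least 20 cells. Sums were tested in edgeR 4.0.16 (quasi-likelihood test, TMM, filterByExpr, library as an additive term, Benjamini-Hochberg adjustment) with DESeq2 1.42.0 as an alternative. On simulated sums with known changes, the edgeR test called 100 of 100 genes changed 4-fold and 37 of 100 changed 2-fold. With 1 library per treatment no test between treatments was made. The number of counts limits the precision, and Poisson and Clopper-Pearson 95% intervals cover counting error only. The members and the gene lists were chosen with earlier results of these data known. All 10 members are named. The genes named from the pathway lists are mostly among those with the highest CPM in an epithelial lineage, and not all of those are named. Strand use in counting was not given in the sources used here, and Egfr, Erbb2, Ereg, Tgfa and Nrg1 overlap annotated genes on the opposite strand.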

Additional observations from a re-analysis of the deposited data

Results flagged for a closer look

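Hbegf moved in opposite directions between compartments within the same pair of libraries. For OVX_E2_P4 over OVX_E2 its ratio was 1.53 in basal-like cells, whereas L-Alv-like cells had 0.651 and fibroblast-like cells 0.624. For OVX_E2_P4_PBDE over OVX_E2_P4 basal-like cells had 2.17 and fibroblast-like cells 2.03, whereas L-Hor-like cells had 0.639. With the background subtracted, the basal-like ratio of 2.17 was 1.48. Fibroblast-like cells are a mixture: the sub-cluster led by Krtdap, with the highest Hbegf, gave 48 of 948 cells in OVX_E2_P4 and 154 of 888 in OVX_E2_P4_PBDE. Within it Hbegf was 52.5 CPM (29.4 to 86.7) and 81.0 CPM (60.7 to 106) in these libraries, and in the sub-cluster led by Akr1c18 it was 27.6 CPM (21.7 to 34.7) and 53.6 CPM (44.6 to 63.8). With 1 library per group the difference between compartments was not tested.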

How the results depend on the processing

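Of the values of single genes, 543 contrast values kept their direction and side of the threshold, 18 lost a call, 8 gained one and 1 reversed. Among treatment ratios 871 stayed within counting error, 62 moved and 11 reversed, some of them with levels at 0 on both sides. Leaving out the highest Scrublet scores turned Btc in hematopoietic-like minus fibroblast-like cells to -2.79 and Areg in cycling luminal-like cells to 0.844 (OVX_E2_PBDE over OVX_E2). It also brought the pairs beyond 2-fold to 3 for OVX_E2 over OVX, 3 for OVX_E2_P4 over OVX_E2 and 1 for OVX_E2_P4_PBDE over OVX_E2_PBDE. Over all barcodes 0 members were beyond 2-fold in OVX_E2_P4 over OVX_E2, OVX_E2_P4_PBDE over OVX_E2_PBDE, OVX_E2_PBDE over OVX_E2 and OVX_E2_P4_PBDE over OVX_E2_P4. With at least 20 UMIs the pairs were 6 for OVX_E2_P4_PBDE over OVX_E2_PBDE. With the background subtracted they were 9 for that comparison and 11 for OVX_E2_PBDE over OVX_E2. Subtraction set levels below the background to 0, and ratios of levels at 0 on both sides may be among these pairs. For Areg, subtraction left 0 on both sides in basal-like cells (OVX_E2_P4 over OVX_E2, OVX_E2_PBDE over OVX_E2) and in fibroblast-like cells (OVX_E2_P4_PBDE over OVX_E2_P4). The ratios of 0.630, 0.691 and 1.40 there came only from the added UMI and the UMI totals, and are not differences in Areg. Areg in cycling luminal-like cells was reversed (0.946 for OVX_E2_PBDE over OVX_E2, 0.972 for OVX_E2_P4_PBDE over OVX_E2_P4). The 2.92 for Hbegf in cycling luminal-like cells (OVX_E2_P4_PBDE over OVX_E2_P4) also came from levels at 0 on both sides. After subtraction Egfr in hematopoietic-like cells had 6.02 (OVX_E2 over OVX). Median-ratio scaling gave 1.03 for Areg in L-Hor-like cells (OVX_E2_P4 over OVX_E2), and a mitochondrial limit of 5% gave 1.05 for Hbegf in endothelial-like cells (OVX_E2_P4_PBDE over OVX_E2_PBDE). Without the mixed hematopoietic-like sub-clusters, an alternative chosen after seeing the data, Areg in these cells was 1.39 (OVX_E2_P4_PBDE over OVX_E2_P4). The cause of the other changes was not tested. No paired analysis was possible because each treatment had 1 library, and the contrasts between compartments already held library as a term. Depth limits Ereg, Erbb4 and Btc most.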
